A study of Mus musculus with 12 samples.

Results

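Rab GTPases and the exocyst were followed as 1 set of membrane trafficking genes in mouse ESCs and in the spheroids grown from them. The set held the protein-coding genes whose mouse symbols are those of numbered Rab GTPases, the Rab11 adaptors *Rab11fip1* to *Rab11fip5*, the exchange factor *Rab3ip*, or the exocyst subunits *Exoc1* to *Exoc8*. It counted 73 genes (59 Rab, 5 Rab11fip, *Rab3ip* and 8 exocyst) of 35580 genes summed from the transcript tables, and the rule read symbols alone. Of these, 70 passed the filter on low counts and were tested among 17424 genes. *Rab7b*, *Rab40b* and *Rab42* did not pass, with at most 15 estimated counts in any library.

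Poly(A) RNA was sequenced from WT cells, the parental R1 mouse ESC line, and from CIDEA KO cells, a single R1 subclone (19.7) in which CRISPR-Cas9 removed the *Cidea* locus. The 0 h groups were ESCs kept with LIF and 10% FBS. The 24 h and 48 h groups were the same cells as 3D spheroids grown with Matrigel and 15% FBS and no LIF, the setting in which mouse ESCs polarise and open a lumen. For molecular experiments the paper describes seeding on top of a Matrigel coat, in medium with added Matrigel. It describes embedding in drops of growth factor-reduced Matrigel as its other form of the culture. Each of the 6 groups had 2 libraries, 12 in all. Matrix, serum and LIF all changed between 0 h and the spheroids, so their effects and that of time cannot be told apart. All KO libraries came from 1 clone, so that loss of *Cidea* and any other feature of the clone cannot be told apart.

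Library depth was 29.0 to 38.5 M estimated counts, at which 3 counts correspond to 0.0784 to 0.104 CPM (counts in every 1000000). *Cidea* was read at 20 to 117 estimated counts in the 6 WT libraries and at 0 in all 6 KO libraries, as labelled. All 8 pluripotency markers checked, *Pou5f1* and *Nanog* among them, had a mean of at least 1 TPM (transcripts in every 1000000, a level that accounts for transcript length), and together they summed to 4170 to 7150 TPM. The 4 markers of the primed state summed to 59 to 85.4 TPM in the ESCs and to 659 to 697 TPM at 48 h. Primitive endoderm markers summed to 3.21 to 9.37 TPM, trophoblast markers to 1.98 to 7.78 TPM and mesoderm markers to 1.2 to 4.68 TPM. Fibroblast markers summed to 6.88 to 24.8 TPM, most of it *Thy1*, and neural markers, mostly *Tubb3*, to 142 to 166 TPM at 0 h and 55.4 to 74.8 TPM at 48 h. No listed marker was at 0 in all libraries. The part of these markers in the results was not tested. The first CIDEA KO library at 24 h stood apart, with 14051 genes at 10 or more counts against 14919 to 16097 in the other 11. The numbers of members called at 24 h are therefore given with and without it. Changes of single genes at 24 h are mostly given with it only.

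Rab proteins are small GTPases that mark membrane compartments. In the GTP-bound state each recruits effectors that move, tether or fuse vesicles. When an epithelial lumen opens, Rab11 and its adaptors carry apical cargo from recycling endosomes, Rab8 is loaded with GTP by the exchange factor Rabin8 (the product of *Rab3ip*), the octameric exocyst tethers the vesicles at the plasma membrane, and Rab35 helps to fix the site where the apical surface forms. *Rab11a*, *Rab8a* and *Rab35* are therefore the members best known for lumen formation.

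The 300-base windows that RefSeq gives from 250 bases before to 50 bases after a gene's start (GRCm38.p6) were matched for 60 of the 73 genes. Those of 4 genes called at 48 h in both genotypes are shown here, *Rab25* and *Rab19* among the genes that rose and *Rab31* and *Rab11fip5* among those that fell. *Rab19* passed the filter on low counts only through libraries in which it was higher, so that it had to differ. Each is written 5′ to 3′ along the gene's own strand, and capitals mark the E-box CAGGTG, on either strand, which the repressors ZEB and SNAIL bind. The windows lie at chr3:88548230-88548529 (minus strand), chr6:39381103-39381402 (plus strand), chr17:65772703-65773002 (minus strand) and chr6:85374585-85374884 (minus strand).
*Rab25*: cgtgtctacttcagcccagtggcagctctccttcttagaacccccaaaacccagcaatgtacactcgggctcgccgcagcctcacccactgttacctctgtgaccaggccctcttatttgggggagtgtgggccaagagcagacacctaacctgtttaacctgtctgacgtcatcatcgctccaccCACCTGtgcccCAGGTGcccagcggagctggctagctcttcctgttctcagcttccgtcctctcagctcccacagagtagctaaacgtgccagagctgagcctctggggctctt
*Rab19*: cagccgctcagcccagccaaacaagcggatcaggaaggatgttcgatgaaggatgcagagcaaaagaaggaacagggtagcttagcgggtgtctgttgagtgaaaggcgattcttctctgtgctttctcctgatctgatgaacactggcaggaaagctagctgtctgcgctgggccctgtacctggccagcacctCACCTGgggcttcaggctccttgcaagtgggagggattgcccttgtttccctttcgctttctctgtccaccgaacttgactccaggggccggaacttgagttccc
*Rab31*: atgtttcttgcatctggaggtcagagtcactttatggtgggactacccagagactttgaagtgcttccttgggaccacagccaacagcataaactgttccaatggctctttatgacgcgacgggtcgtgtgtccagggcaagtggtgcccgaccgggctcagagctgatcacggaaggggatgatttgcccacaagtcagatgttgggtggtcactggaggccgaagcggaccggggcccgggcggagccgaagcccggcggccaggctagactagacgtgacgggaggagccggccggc
*Rab11fip5*: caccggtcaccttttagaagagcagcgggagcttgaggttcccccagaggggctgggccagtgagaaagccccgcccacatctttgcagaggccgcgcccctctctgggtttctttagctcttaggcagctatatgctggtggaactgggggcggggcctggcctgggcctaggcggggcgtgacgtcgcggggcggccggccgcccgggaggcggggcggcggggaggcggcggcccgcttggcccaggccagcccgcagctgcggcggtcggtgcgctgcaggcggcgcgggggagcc
The *Rab25* window held the E-box in both orientations, starting 64 and 53 bases before the RefSeq start. The *Rab19* window held it once, 55 bases before the RefSeq start. That start lies 178 bases downstream of the start of *Rab19-201* (39381175), the transcript on which *Rab19* was counted. The *Rab19* E-box thus lies within the span of the counted transcript and not upstream of it. The E-box was not among the letters of the *Rab31* and *Rab11fip5* windows, nor in the *Rab15* window nearest to the start of that gene's main transcript. These windows were chosen after the changes were seen, and the letters did not follow direction in all genes. *Rab34* and *Rab6a* rose in WT and had no CAGGTG in any window, and *Exoc4* fell in WT and had it. No window was matched for *Rab11fip4* or *Rab2a*. CAGGTG occurred in 20.2% of all 32851 RefSeq windows and in 15 of the members' 78 (19.2%). Counted by gene, over any window, it occurred in 22.6% of all 27025 genes and in 15 of the 60 matched members (25%), *Rab15* included through another of its 4 windows. The letters AACCGGTT, a site of the GRHL factors of epithelia, were in 0.146% of all windows and in those of *Exoc2* and *Rab11fip2*. TCACGTGA, which holds the E-box CACGTG of the lysosomal regulator TFEB, was in 0.974% of all windows and in those of *Rab5a*, *Rab21* and *Rab24*, and the POU octamer ATGCAAAT was in 1.74% of all windows and in that of *Exoc1*. Matches to these short motifs describe the sequence and are not evidence of binding.

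Levels were first compared between genes in TPM. *Rab1a*, which directs transport from the ER to the Golgi, was the highest with a mean of 241.5 TPM over the 12 libraries (range 207.3 to 284.7), followed by *Rab7* of late endosomes at 205.3 TPM and *Rab5c* of early endosomes at 141.8 TPM. *Rab11a* (mean 106.7 TPM, range 83.89 to 125.5) and its paralog *Rab11b* (mean 104.3 TPM, range 83.89 to 127.5) came next and overlapped across their whole ranges. In counts, which do not account for length, they did not overlap. *Rab11a* was at 37.2 to 49.4 CPM and *Rab11b* at 92.1 to 123 CPM. In all, 39 of the 73 genes had a mean of at least 10 TPM, 23 lay between 1 and 10 TPM and 11 were under 1 TPM. The whole set took 0.303 to 0.333% of the counts in every library and summed to 2063 to 2267 TPM.

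The transcript behind a level mattered most for 2 of the 39 higher genes, *Rab8a* and *Rab23*, where transcripts annotated as protein-coding made up less than 50% of the gene's TPM. It mattered for *Rab11a* too, with 68.2% of its TPM on coding transcripts. Beside *Rab11a-208* (effective length 2152 bases), its counts lay in part on short models, such as *Rab11a-203* (216 bases) and *Rab11a-201* (411 bases). *Rab8a* ranked 7th by total TPM with a mean of 93.1, but 22nd by coding transcripts with a mean of 28. The rest of it was *Rab8a-202*, a retained-intron model that held on average 69.2% of the gene's TPM and is short, so that few reads give it a high TPM. By counts, 83.9% of *Rab8a* lay on coding transcripts, as did 86.9% of *Rab11a* and 88.6% of *Rab35*. Kallisto divides reads that fit several transcripts by estimation. Related genes such as *Rab11a* and *Rab11b*, *Rab8a* and *Rab8b* or *Rab5a*, *Rab5b* and *Rab5c* may share such reads, which would make the split between them uncertain. How many reads they share was not measured.

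**Figure D1:**
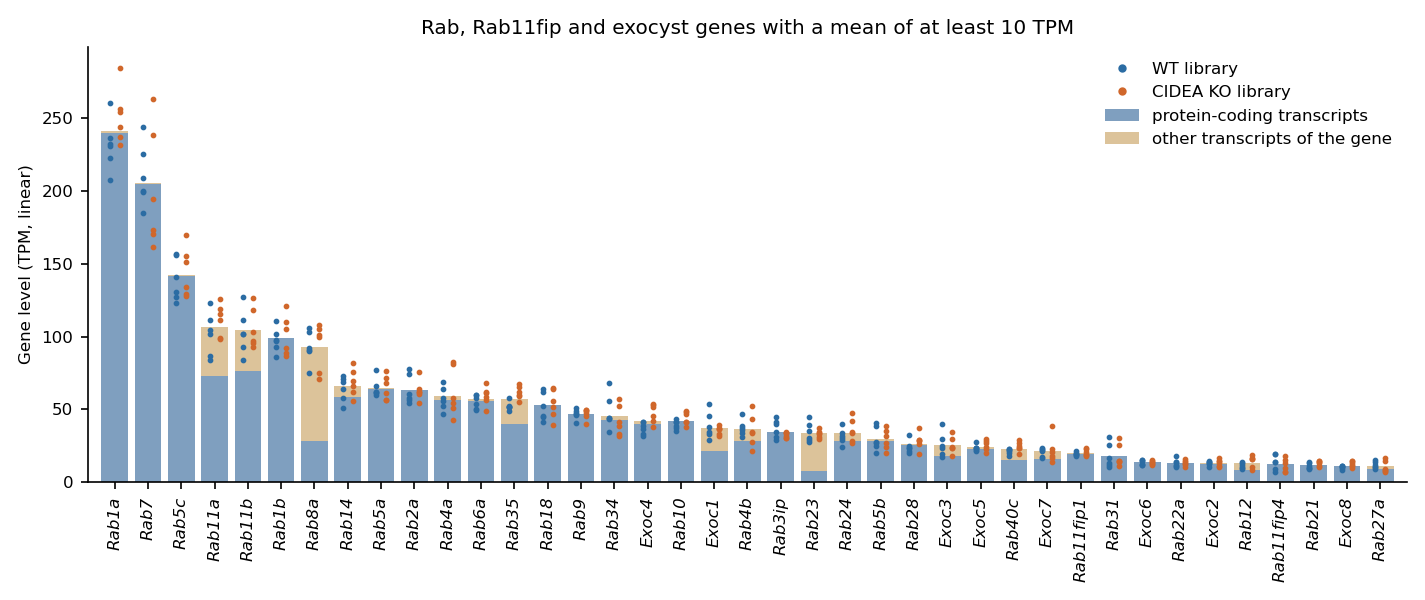
Levels of the 39 genes with a mean of at least 10 TPM, on a linear axis. Bars are means over the 12 libraries, split into protein-coding and other transcripts, and points are single WT (left) and CIDEA KO (right) libraries. *Rab1a* and *Rab7* stand above 200 TPM, and most of the *Rab8a* bar is not protein-coding.

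The change from ESCs to 48 h spheroids was compared within each genotype (edgeR's quasi-likelihood test on counts, Benjamini-Hochberg adjusted p under 0.05). In WT, 7 members rose and 11 fell, which is 10% and 15.7% of the 70 tested against 11.1% and 12.5% of all genes tested. In CIDEA KO, 7 rose and 8 fell, which is 10% and 11.4% against 12.1% and 12.8% of all genes. The shares were thus close to the background, and the median log2 change of the set was 0.03 in WT and -0.04 in KO, beside 0.02 and 0.01 over all genes. Of the called members, 13 were shared, 6 higher and 7 lower in both, which is 72.2% of the WT list and 86.7% of the KO list. One of the 13, *Rab19*, had at most 6 counts in any 0 h library, so that it passed the filter on low counts only through libraries in which it was higher and had to differ. Across the 70 genes the log2 changes of the 2 genotypes, which share no library, had a Pearson r of 0.93, and of 0.88 over the 58 genes with a mean log2 CPM of at least 1. None of the 70 members passed the test of the difference between the 2 changes (3, or 4.29%, at an unadjusted p under 0.05 against 5.76% of all genes), where 0.0402% of all genes did.

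**Figure D2:**
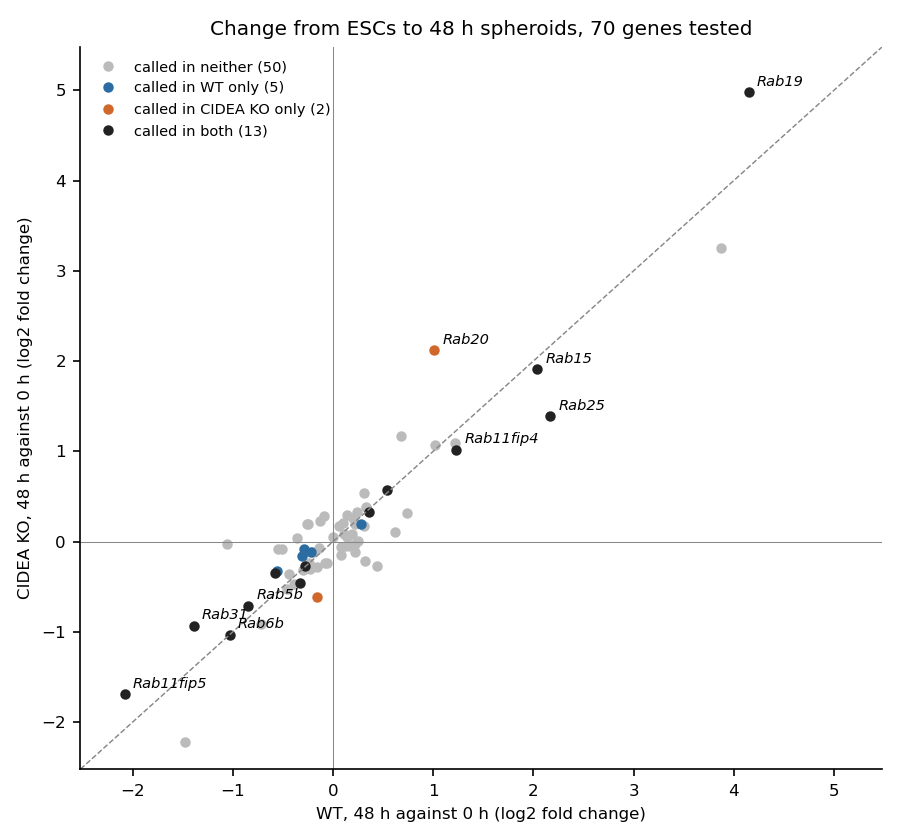
Log2 fold change from 0 h to 48 h in WT (horizontal) against CIDEA KO (vertical) for the 70 genes tested. The dashed line marks equal change, and colours mark genes past an adjusted p of 0.05. The 13 genes called in both genotypes lie near the line, and the unlabelled grey points far from the origin at the upper right and lower left are *Rab3c* and *Rab44*, both of very low counts.

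Of the 10 recycling and apical Rabs tested, *Rab25* and *Rab15* rose and *Rab8a* fell in both genotypes, or 2 higher and 1 lower where 11.1% and 12.5% of all genes were called in WT and 12.1% and 12.8% in KO. *Rab25*, a Rab11-family GTPase of epithelial apical recycling (chromosome 3, 88542029 to 88548300, minus strand), was at 1.94 and 1.78 CPM in WT ESCs, 3.48 and 2.7 CPM at 24 h and 9.02 and 7.8 CPM at 48 h. In CIDEA KO it was at 2.95 and 1.96, then 1.93 and 3.5, then 6.35 and 6.59 CPM. Both 48 h groups lay above all earlier libraries of their genotype. The log2 change was 2.17 ± 0.43 (SE; adjusted p = 0.0008) in WT and 1.39 ± 0.42 (adjusted p = 0.018) in KO. The KO call was lost without any 1 of the 4 KO libraries at 0 h and 48 h (adjusted p 0.05 to 0.22). *Rab15*, a regulator of recycling endosomes, was at 4.65 and 6.61 CPM in WT ESCs, 13 and 12.6 CPM at 24 h and 21.5 and 24.8 CPM at 48 h. In KO it was at 6.74 and 5.99, then 7.41 and 9.43, then 25 and 22.8 CPM. It rose 4.12-fold in WT and 3.75-fold in KO over 48 h (adjusted p = 1.1e-06 and 1.9e-06), and the groups did not overlap. By 24 h the rise had passed the test in WT (log2 change 1.18, adjusted p = 0.0009) and not in KO, and the difference between the 2 was not called.

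Among the known lumen genes, *Rab11a* (chromosome 9, 64715299 to 64737758, minus strand) was at 37.2 and 40.4 CPM in WT ESCs and 44.5 and 44.8 CPM at 48 h, and at 41 and 40.6 CPM in KO ESCs and 49.2 and 48.7 CPM at 48 h. The 48 h libraries were above the 0 h ones in both genotypes without overlap, and neither difference passed the test (log2 change 0.2, adjusted p = 0.22 in WT and 0.26, adjusted p = 0.095 in KO). The 95% intervals ran from -0.03 to 0.43 and from 0.03 to 0.49. *Rab8a* (chromosome 8, 72161200 to 72183904, plus strand) was at 107 and 112 CPM in WT ESCs and 90.1 and 90 CPM at 48 h, and at 114 and 122 CPM in KO ESCs and 104 and 91.7 CPM at 48 h. It fell by 0.28 in WT (adjusted p = 0.03) and by 0.27 in KO (adjusted p = 0.038) on the log2 scale. Both calls depended on single libraries. The WT call was lost without either WT library of 0 h or of 48 h (adjusted p 0.069 to 0.17), and the KO call without either KO library of 0 h (0.06 and 0.27), without the second of 48 h (0.36), or without either WT library of 48 h (0.05 and 0.051). The KO call was also lost with coding transcripts only (-0.26, adjusted p = 0.059), with average transcript lengths as offsets (-0.25, 0.48) and with limma on log2(TPM + 1) (-0.3, 0.39).

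On the length-adjusted scale the direction of *Rab8a* in WT turned. It was 0.086 with average transcript lengths as offsets and 0.13 on log2(TPM + 1), neither called, beside -0.38 (adjusted p = 0.009) when only coding transcripts were counted. The share of TPM on the retained-intron model moved with this, from a mean of 66.3% at 0 h to 76.7% at 48 h in WT (SD 8.96 and 3.01, n = 2). On the coding transcript *Rab8a-201*, before TMM scaling, WT libraries had 94.2 and 90.7 estimated counts in every 1000000 at 0 h and 73.6 and 69.8 at 48 h, while *Rab8a-202* had 11.9 and 19.7 against 17.8 and 20.7. The coding transcript was thus lower at 48 h without overlap and the retained-intron model overlapped. *Rab35* (chromosome 5, 115631908 to 115647736, plus strand) was at 85.8 and 88.1 CPM in WT ESCs and 70.7 and 80.6 CPM at 48 h, with a log2 change of -0.2 (adjusted p = 0.14) that became 0.064 with length offsets. Its transcript of the nonsense-mediated decay class held 17.3% of its TPM at 0 h and 38.2% at 48 h in WT (SD 3.24 and 15.2), a difference that rested mostly on 1 library at 49%. In KO *Rab35* was lower at 24 h (97.2 and 96.9 against 77.7 and 77.6 CPM; log2 change -0.32, adjusted p = 0.02) and stood at 93 and 85.2 CPM at 48 h. That call was lost without either KO library of 0 h (log2 change -0.33 and -0.32) or the first of 24 h (-0.33). It was also lost with coding transcripts only (-0.36, adjusted p = 0.062), with length offsets (-0.27, 0.14) and with limma on log2(TPM + 1) (-0.22, 0.18).

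**Figure D3:**
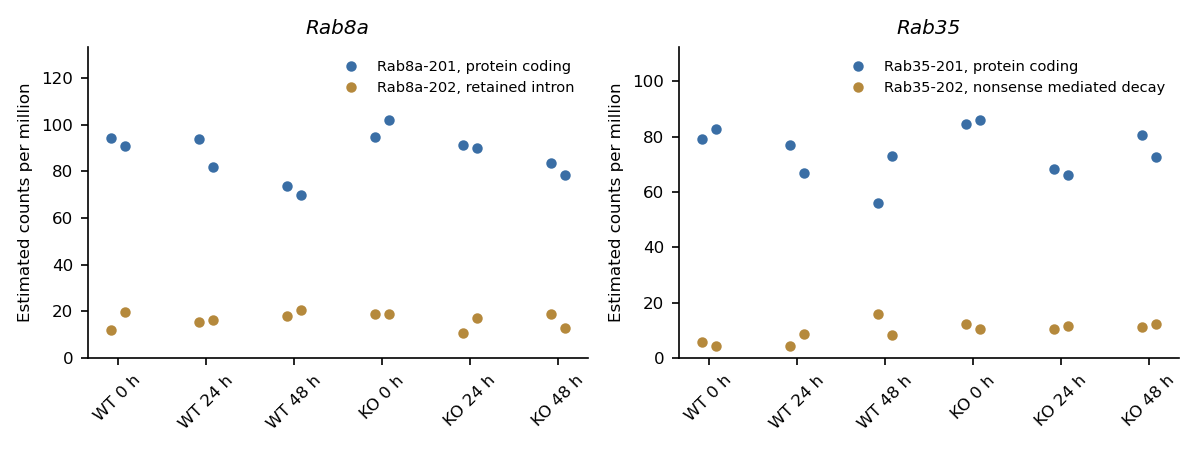
Estimated counts in every 1000000 on the main coding transcript (blue) and the main other transcript (ochre) of *Rab8a* and *Rab35*, with 1 point per library and 2 per group. The coding *Rab8a-201* is lower in both WT libraries at 48 h (73.6 and 69.8) than at 0 h (94.2 and 90.7).

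Of the 5 Rab11 adaptors 1 rose and 1 fell in both genotypes. *Rab11fip4*, which links Rab11 to recycling and to the midbody (chromosome 11, 79591212 to 79698023, plus strand), was at 38.1 and 35.6 CPM in WT ESCs, 52 and 53.3 CPM at 24 h and 94.9 and 78.4 CPM at 48 h. In KO it was at 30.1 and 27.6, then 47.6 and 39, then 62.3 and 54.5 CPM. It rose 2.35-fold in WT and 2.03-fold in KO (adjusted p = 4.4e-07 and 4.8e-06), with no overlap between successive times. *Rab11fip5*, an adaptor of apical recycling in epithelia (chromosome 6, 85334962 to 85374634, minus strand), was at 37.1 and 43.2 CPM in WT ESCs, 14.3 and 13.8 CPM at 24 h and 10.7 and 8.37 CPM at 48 h. In KO it was at 21.1 and 23.3, then 9.05 and 11.8, then 8.63 and 4.99 CPM. By counts most of its fall had taken place by 24 h (log2 change -1.51 in WT and -1.09 in KO). In KO this did not hold on the length-adjusted scale, where the 24 h change was -0.43 with length offsets (adjusted p = 0.52) and -0.35 with limma (0.58), and the mean levels were 5.43, 4.17 and 2.18 TPM at 0, 24 and 48 h (SD 0.33, 1.57 and 1.02, n = 2). By 48 h the log2 change was -2.08 ± 0.23 in WT and -1.69 ± 0.24 in KO (adjusted p = 1.4e-06 and 1.6e-05), and the KO call was lost with limma (-1.05, adjusted p = 0.062). Neither *Rab11fip1* (0.081 in WT), *Rab11fip2* (0.076) nor *Rab11fip3* (0.32) passed the test at 48 h. *Rab3ip* did not either, with 39.9 and 33.8 CPM in WT ESCs and 36.2 and 44.2 CPM at 48 h.

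Of the 10 early endosome Rabs tested, 3 fell and none rose in WT, and 3 fell and 1 rose in KO, where 12.5% and 12.8% of all genes fell and 11.1% and 12.1% rose. *Rab31*, which acts between the Golgi and endosomes, was at 61.9 and 73.9 CPM in WT ESCs, 32.4 and 29 CPM at 24 h and 24.4 and 27.5 CPM at 48 h. In KO it was at 58.6 and 69.6, then 25.3 and 30.1, then 34 and 33.2 CPM. The fall was complete or nearly so by 24 h (log2 change -1.15 in WT and -1.21 in KO, adjusted p = 5.2e-06 and 2.1e-06). *Rab5b*, one of 3 Rab5 genes of early endosomes, went from 87.4 and 82.3 CPM to 42.1 and 52.1 CPM in WT and from 73.5 and 80.4 CPM to 43.5 and 50.9 CPM in KO over 48 h (log2 change -0.85 and -0.71, adjusted p = 3.1e-05 and 0.00021). Its paralogs *Rab5a* and *Rab5c* were not called. *Rab14* fell in WT by 0.31 on the log2 scale (adjusted p = 0.017), a call lost without any 1 of the 4 WT libraries compared (0.058 to 0.1). *Rab20* rose in KO (0.626 and 1.33 to 4.46 and 4.09 CPM, adjusted p = 0.009), a call lost without the first KO library of 0 h or of 48 h. In WT *Rab20* went from 2.01 and 2.22 CPM to 4.72 and 3.79 CPM, higher without overlap and not called. *Rab4b* fell in KO (29.1 and 23.7 to 19 and 15.6 CPM, adjusted p = 0.012), a call lost without the first KO library of 0 h or the second of 48 h.

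Of the 6 late endosome Rabs tested, *Rab7* was called in both genotypes. This GTPase of late endosomes and lysosomes went from 288 and 267 CPM in WT ESCs to 213 and 210 CPM at 24 h and 218 and 224 CPM at 48 h. In KO it went from 281 and 281 to 188 and 200 and then 208 and 201 CPM. The fall was small, came by 24 h and did not overlap (48 h log2 change -0.33 ± 0.07 in WT and -0.46 ± 0.07 in KO, adjusted p = 0.0016 and 4.6e-05). On the length-adjusted scale the WT change was -0.23 (adjusted p = 0.15). The other 5 late endosome Rabs tested, with WT log2 changes of 0.14 (*Rab9*), -0.55 (*Rab9b*), -0.39 (*Rab12*), -0.44 (*Rab24*) and -0.72 (*Rab29*), did not pass at 48 h in either genotype. *Rab18*, which sits on the ER and on lipid droplets, the organelle that CIDEA itself occupies, was at 93.9 and 96.1 CPM in WT ESCs, 64.9 and 76.4 CPM at 24 h and 61.1 and 68 CPM at 48 h. It was at 95.2 and 93.6, then 57.3 and 78, then 78.8 and 70.8 CPM in KO. The 48 h change was -0.56 in WT (adjusted p = 0.0025) and -0.33 in KO (adjusted p = 0.057), and their difference was not called. *Rab18* was not called between KO and WT over all times (log2 difference 0.047, 95% interval -0.1 to 0.2).

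**Figure D4:**
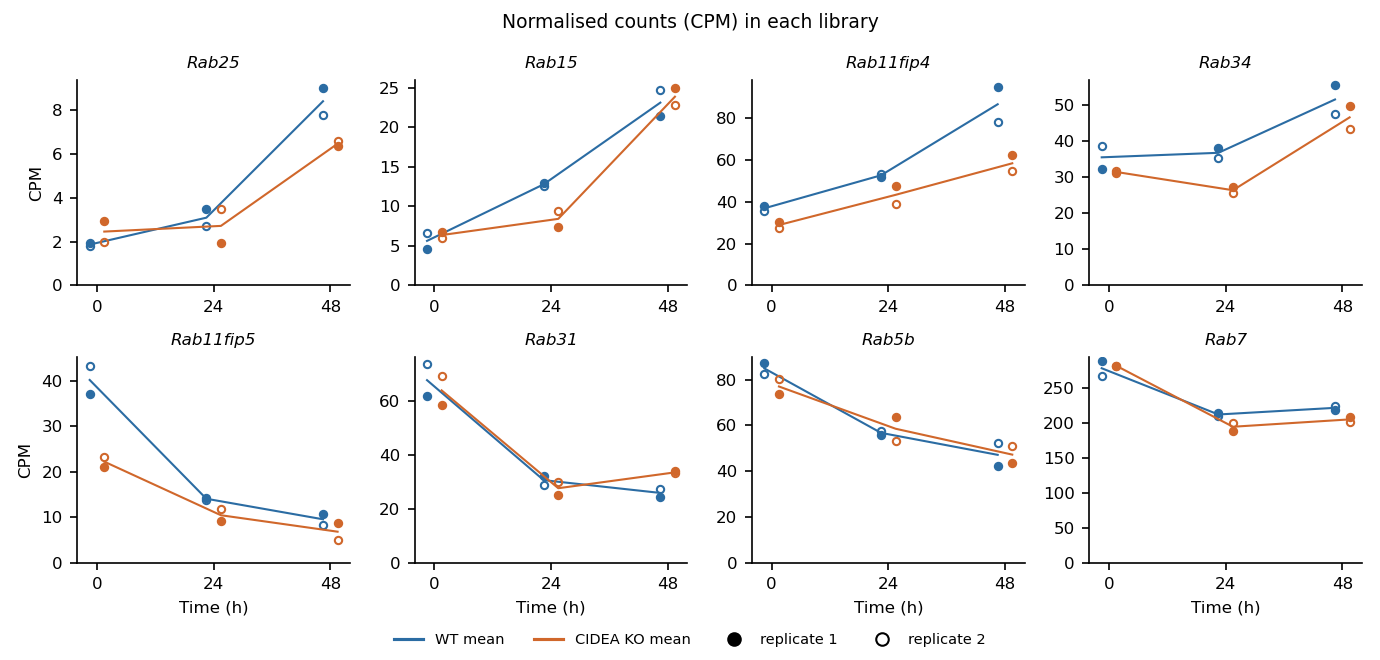
Normalised counts (CPM) of 8 members at 0, 24 and 48 h. Lines join the means of 2 libraries in WT (blue) and CIDEA KO (orange), filled and open points are replicates 1 and 2, and each vertical axis starts at 0. The upper 4 genes rise to 48 h, and the lower 4 fall mostly by 24 h on this scale.

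The 13 ER and Golgi Rabs went both ways, 4 higher and 2 lower in WT and 3 higher and 1 lower in KO, against the same shares of all genes. *Rab34*, a Golgi Rab also needed for cilia, was at 32.2 and 38.6 CPM in WT ESCs and 55.3 and 47.5 CPM at 48 h, and at 31.2 and 31.5 CPM in KO ESCs and 49.6 and 43.3 CPM at 48 h (log2 change 0.54 and 0.57, adjusted p = 0.0047 and 0.003). The WT call was lost without the first library of 0 h or of 48 h (0.085 and 0.086) and the KO call without the first of 48 h (0.062). *Rab2a*, of Golgi-to-ER transport, rose by 0.36 and 0.33 (adjusted p = 0.011 and 0.021), and each call needed both the first library of 0 h (without it, 0.098 in WT and 0.27 in KO) and 1 library of 48 h (the second in WT, 0.094, and the first in KO, 0.38). *Rab6b*, the Rab6 form of neurons, went from 13.2 and 8.06 CPM to 4.82 and 5.56 CPM in WT and from 17.6 and 13.2 CPM to 8.29 and 6.83 CPM in KO (log2 change -1.03 in both, adjusted p = 0.01 and 0.0094). Its calls were lost without the first 0 h library of either genotype (0.21 and 0.14), the first WT library of 48 h (0.1) or the second KO library of 48 h (0.11). In WT its paralog *Rab6a* rose by 0.28 on the log2 scale (adjusted p = 0.022), a call lost without any 1 of the 4 WT libraries compared (0.076 to 0.11). *Rab1a* fell by 0.22 in WT (adjusted p = 0.028), not without the second library of 0 h (0.31) or of 48 h (0.27).

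*Rab19*, a little-studied Golgi Rab, was read at 3 and 6 estimated counts in the WT ESC libraries, 25 and 69 at 24 h and 70 and 110 at 48 h. The KO libraries had 2 and 3, then 3 and 26, then 97 and 92 counts. The summed counts at 48 h, set against depth, were 18.9 times those at 0 h in WT (95% exact interval 9.73 to 42, for counting error only) and 32.4 times in KO (13.6 to 101). The call was lost without the first 0 h library of either genotype (adjusted p = 0.083 and 0.054), and with a filter of 10 counts in every library *Rab19* was not tested.

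The levels of the 8 exocyst subunits lay between 21.2 and 164 CPM in the 12 libraries, and in TPM *Exoc4* was the highest. At 48 h, 2 of the 8 were lower in WT and 1 in KO, and none was higher, where 12.5% of all genes were lower in WT and 12.8% in KO. *Exoc3* (Sec6) went from 68.3 and 59.3 CPM to 40.7 and 44.7 CPM in WT and from 63.3 and 60.4 CPM to 49.6 and 47.6 CPM in KO (log2 change -0.58 and -0.35, adjusted p = 0.00069 and 0.027), and the KO call was lost without any 1 of the 4 libraries compared (0.08 to 0.15). *Exoc4* (Sec8) went from 123 and 130 CPM to 106 and 102 CPM in WT (log2 change -0.29, adjusted p = 0.013; without the second library of 0 h 0.12, and without either of 48 h 0.053 and 0.11). In KO it was at 138 and 142 CPM and then at 126 and 138 CPM, a log2 change of -0.082 that was not called. The changes of the other 6 subunits at 48 h lay between -0.3 and 0.24 in WT and between -0.31 and 0.33 in KO, with no call.

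The single steps gave fewer calls. From 0 h to 24 h 8 members were called in WT (2 higher, 6 lower) against 15% of all genes, and 13 in KO (5 higher, 8 lower) against 18.6%. Without the first KO library of 24 h the numbers were 16 in WT and 9 in KO of 71 tested, or 22.5% and 12.7% against 19% and 13.8% of all genes, and without the second they were 15 and 20, or 21.1% and 28.2% against 18.8% and 27.4%. The share of members moved with that of all genes. In KO, *Rab4a* of fast recycling was at 44.5 and 35.8 CPM at 0 h, 70.5 and 63.8 CPM at 24 h and 44.2 and 48.1 CPM at 48 h, a rise at 24 h (log2 change 0.74, adjusted p = 0.00017) and a return. *Rab27a*, of exosome and granule secretion, went from 14.1 and 12.8 CPM to 20.5 and 27.9 CPM and then 15.7 and 17.2 CPM (log2 change to 24 h 0.84, adjusted p = 0.0032). In WT both genes were also highest at 24 h without overlap, though neither rise from 0 h was called. There *Rab4a* was at 49.2 and 49.1, then 56.3 and 54.5, then 43.6 and 38.8 CPM. *Rab27a* in WT was at 22.3 and 17.2, then 26.9 and 28.8, then 17.7 and 19.3 CPM. From 24 h to 48 h 8 members were called in WT (5 higher, 3 lower) against 8.14% of all genes, and 6 in KO (3 higher, 3 lower) against 9.95%. *Rab15*, *Rab11fip4* and *Rab34* rose and *Exoc3*, *Exoc4* and *Rab4a* fell in this step in both genotypes. In WT *Rab15* and *Rab4a* lost the call without any 1 of the 4 libraries of 24 h and 48 h (0.06 to 0.16 and 0.07 to 0.25). *Rab34* lost it in WT without either library of 24 h or the first of 48 h (0.11 to 0.3), *Exoc4* without the first of 24 h or either of 48 h (0.075 to 0.17), and *Exoc3* without the second of 24 h or the first of 48 h (0.13 and 0.17). In KO *Rab11fip4* lost it without the second library of 24 h (0.15), the first of 48 h (0.35) or either WT library of 24 h (0.053 in both), with coding transcripts only (0.06), with length offsets (0.14, adjusted p = 0.79) and with limma (0.11, adjusted p = 0.85). *Exoc3* lost it in KO without the second library of 24 h or either of 48 h (0.099 to 0.16) and with coding transcripts only (0.058), and *Exoc4* and *Rab4a* without the first of 48 h (0.26 and 0.087). With length offsets the KO calls of *Exoc3*, *Exoc4* and *Rab4a* were lost as well (0.61, 0.24 and 0.064). *Rab15* and *Rab34* kept it in KO under all alternatives run. Without 1 library at a time the numbers called ran from 2 to 9 in WT (3.48 to 11.9% of all genes) and from 3 to 14 in KO (4.03 to 19.9%), and with length offsets they were 0 and 3 (3.24% and 4.72%).

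CIDEA KO was then compared with WT. No member was called at 0 h, where 1.26% of all genes were, and none at 24 h, against 1.46% (1 each by DESeq2). At an unadjusted p under 0.05 there were 6 of 70 at 0 h (8.57%, against 10% of all genes) and 9 of 70 at 24 h (12.9% against 12.5%). By this looser measure the share was above that of all genes at 48 h, with 7 of 70 (10% against 7.74%). It was also above over the 3 times together, with 17 of 70 (24.3% against 16.8%). Neither excess was tested, and members and all genes were not matched for counts. At 48 h 1 member, *Rab11fip4*, was called, against 0.671% of all genes. Over the 3 times together, with 6 libraries a side, 4 of 70 members were called, or 5.71% against 5.03% of all genes, a share of calls close to the background. Without the first KO library of 24 h the numbers were 0 at 24 h and 5 over all times (1.27% and 5.99% of all genes). Without the second, which leaves the library that stood apart, they were 7 and 10 of 71, or 9.86% and 14.1% against 12.4% and 13.4% of all genes, so that they stayed near the background. The difference between genotypes in the step from 0 h to 24 h was called for no member (4, or 5.71%, at an unadjusted p under 0.05 against 5.91% of all genes), where 0.0115% of all genes were called, and for 5 without the second KO library of 24 h (7.04% against 5.71% of all genes).

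*Rab11fip4* was the lower in KO at every time, and the libraries of the 2 genotypes did not overlap at any of the 3 times. Its log2 difference was -0.35, -0.28 and -0.57 at 0, 24 and 48 h and -0.4 ± 0.073 over all (adjusted p = 0.0021). The call at 48 h (adjusted p = 0.041) was lost without the first WT library of 48 h (0.54), either KO library of 48 h (0.09 and 0.46) or either WT library of 24 h (0.062 and 0.061). *Rab11fip5* had log2 differences of -0.86, -0.43 and -0.47 at the 3 times and of -0.59 ± 0.13 over all (adjusted p = 0.011). With length offsets neither adaptor was called over all times (-0.23, adjusted p = 0.49, and -0.46, adjusted p = 0.36). *Exoc4* was higher in KO without overlap at each time, with log2 differences of 0.14, 0.32 and 0.35 and of 0.27 ± 0.046 over all (adjusted p = 0.0013), which kept its call without any single library and with length offsets, though not with limma on log2(TPM + 1) (adjusted p = 0.08). *Rab34* was lower by a log2 difference of -0.27 (adjusted p = 0.048), a call kept without the first WT library of 0 h, the second of 48 h or either KO library of 24 h, and lost without any 1 of the other 8 libraries (0.053 to 0.18). *Rab34* and *Rab11fip4* are both on chromosome 11 (78188430 to 78192193 and 79591212 to 79698023), and *Exoc4* and *Rab11fip5* are both on chromosome 6 (33249085 to 33973979 and 85334962 to 85374634).

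The 3 lumen genes did not pass the test between genotypes at any time. By counts *Rab11a* was higher in KO without overlap at each time, at 41 and 40.6 against 37.2 and 40.4 CPM at 0 h, 49.4 and 46.3 against 40.2 and 43.3 CPM at 24 h and 49.2 and 48.7 against 44.5 and 44.8 CPM at 48 h (log2 difference 0.071, 0.2 and 0.13, adjusted p = 0.96, 0.49 and 0.94). In TPM the genotypes overlapped at 0 h (KO 98.3 and 99.19, WT 83.89 and 101.8) and at 48 h (KO 115.7 and 111.6, WT 104.2 and 122.8). At 24 h they did not (KO 125.5 and 118.7, WT 86.96 and 111.7). Over all times the log2 difference of KO from WT was 0.13 for *Rab11a* (95% interval 0 to 0.27, adjusted p = 0.29), 0.081 for *Rab8a* (-0.03 to 0.19, adjusted p = 0.5) and 0.13 for *Rab35* (0.02 to 0.25, adjusted p = 0.2). Together the intervals span -0.03 to 0.27. *Rab3ip* differed by -0.088 (-0.25 to 0.08), and of the remaining exocyst subunits *Exoc8* was nearest to a call, with 0.24 (0.08 to 0.4, adjusted p = 0.088).

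**Figure D5:**
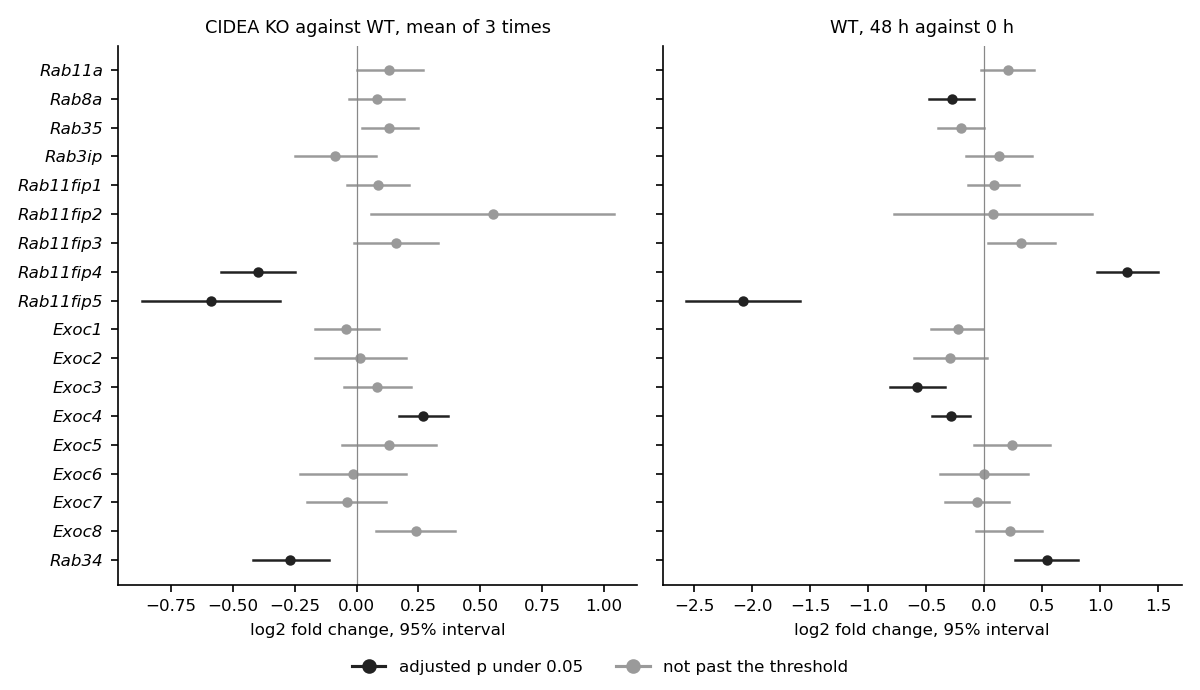
Log2 fold changes with 95% intervals for the lumen genes, *Rab3ip*, the Rab11 adaptors, the exocyst and *Rab34*, for CIDEA KO against WT as the mean of 3 times (left) and for WT at 48 h against 0 h (right). Dark points passed an adjusted p of 0.05. On the left, *Exoc4* is higher and *Rab11fip4*, *Rab11fip5* and *Rab34* are lower in KO, and the horizontal scales of the 2 panels differ.

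The proteins that prenylate, switch, bind or receive Rabs were counted from a list of 138 genes, of which 135 were tested. At 48 h 12 rose and 25 fell in WT and 8 rose and 30 fell in KO, with a median log2 change of -0.09 and -0.12 beside 0.02 and 0.01 over all genes. That is 8.89% higher and 18.5% lower in WT, against 11.1% and 12.5% of all genes, and 5.93% and 22.2% in KO, against 12.1% and 12.8%. The number called fell to 15 to 23 of 37 in WT without any 1 of the 4 WT libraries compared, to 21 to 25 of 38 in KO without any 1 of the 4 KO libraries, and to 14 and 18 with length offsets. The share of all genes called, in either direction, was 23.6% in WT and 25% in KO, and was 14 to 16.2%, 14.9 to 16.7%, and 14.3% and 15.3% under the same alternatives. By class, the Rab GAPs, which switch Rabs off, had 2 higher and 10 lower of 37 in WT, and the exchange factors, which switch them on, had 5 higher and 7 lower of 32. In KO the GAPs had 1 higher and 9 lower, or 24.3% lower, and the exchange factors 2 higher and 8 lower, or 25% lower. The genes called in both genotypes with a log2 change of at least 1 in size were 5. *Stx3*, the SNARE of apical membranes, was at 66.7 and 66.3 CPM in WT ESCs and 143 and 144 CPM at 48 h, and at 55.7 and 56.7 CPM in KO ESCs and 137 and 109 CPM at 48 h (log2 change 1.11 and 1.13). *Tbc1d13*, a GAP for Rab35, went from 176 and 174 CPM to 72.2 and 78.1 CPM in WT and from 154 and 156 CPM to 72.3 and 72 CPM in KO (-1.22 and -1.1). Both changes exceeded the spread between replicates (adjusted p = 6.9e-08 and 4.9e-08 for *Stx3*, 1.3e-08 and 4.1e-08 for *Tbc1d13*). Both genes kept their calls in all alternatives run. The Rab27 effector *Sytl1* (1.79 and 1.77) and the exchange factor *Dennd2d* (0 to 0.35 CPM in the ESCs, 1.9 to 4.99 CPM at 48 h) rose, and *Rab3il1*, an exchange factor of Rab3 and Rab8, fell (-1.21 and -2.51). Like *Rab19*, *Dennd2d* passed the filter on low counts through libraries in which it was higher, so that it had to differ. Its call was lost with limma in WT (1.55, adjusted p = 0.19) and in KO (1.32, 0.28), and with length offsets in KO (3.31, 0.14). Single libraries decided the calls of *Sytl1* in WT (the first of 0 h, 0.19, and either of 48 h, 0.055 and 0.12) and in KO (either of 0 h, 0.072 and 0.2, and the second of 48 h, 0.3), of *Dennd2d* in KO (either of 0 h, 0.11 and 0.077, and the first of 48 h, 0.086) and of *Rab3il1* in WT (either of 0 h, 0.13 and 0.066, and the second of 48 h, 0.26).

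Between genotypes 7 of the 135 were called over all times, 3 higher and 4 lower in KO, or 5.19% against 5.03% of all genes. *Mical1*, a flavoprotein that disassembles actin and binds Rab8-family GTPases, was at 63.9 and 53.4 CPM in WT against 29.7 and 31.7 CPM in KO at 0 h, 70.5 and 65 against 42 and 43.2 CPM at 24 h, and 34.2 and 43.3 against 25.4 and 26 CPM at 48 h. It was lower in KO without overlap at each time (log2 difference over all -0.73, adjusted p = 3e-06), kept that call in all alternatives, and was the one gene of the list called at 0 h (-0.94, adjusted p = 0.00051). Whether genes beside *Mical1* on its chromosome also differed in this clone was not tested. *Rab3il1* was lower by a log2 difference of -1.09 (adjusted p = 0.0047), with 6.55 and 3.57 CPM in WT and 1.35 and 1.32 CPM in KO at 48 h. *Stx3* (-0.23) and *Ankrd27*, an exchange factor for Rab21 (-0.23), were lower, and *Stxbp2* (0.31), *Cdc42* (0.19) and *Rabep1*, an effector of Rab5 (0.18), were higher. The calls of *Stx3*, *Ankrd27*, *Cdc42* and *Rabep1* were each lost without 1 of 3 to 8 single libraries (adjusted p 0.053 to 0.17), and with length offsets *Mical1* was the one gene of the list still called. None of the 135 passed the test of a difference between genotypes in the change over 24 h or 48 h.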

How the data were processed

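Paired-end libraries from poly(A) RNA (TruSeq Stranded mRNA) of 12 samples were trimmed with Trimmomatic 0.33 and quantified with kallisto 0.43.1 by the authors, with mm10 and GRCm38 as builds per the labels. The deposited tables give the estimated count and the TPM of each transcript, beside its length and effective length, as kallisto wrote them. They were summed here per gene with GENCODE M21 (GRCm38), which matched 113580 of 115270 transcripts (98.5%). Unmatched transcripts held 0.659 to 0.709% of counts and were left out.

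Summed estimated counts were rounded and tested with edgeR 4.0.16 (R 4.3.3; filterByExpr, TMM, robust quasi-likelihood F test on 1 fit of all 6 groups, Benjamini-Hochberg over 17424 genes, threshold 0.05). Replicate numbers came from the titles. The study calls the 2 libraries of a group biological replicates from independent samples, and how the cultures were kept apart is not described. All KO libraries are of 1 clone, so p-values measure the spread between samples of a line, not between clones. CPM are TMM-scaled. Intervals on ratios of counts cover counting error only.

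Alternatives were DESeq2 1.42.0, its size factors in edgeR, no filter, at least 10 counts in every library, average transcript lengths as offsets, limma 3.58.1 on log2(TPM + 1), a replicate block, each library left out, and, added after the data were seen, protein-coding transcripts only. The scripts were tested on simulated data. Replicate numbers did not pair the libraries (correlations of deviations 0.003, 0.051 and -0.009 at 0, 24 and 48 h).

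The members and the lists were chosen with earlier results of these data known. Named were *Rab11a*, *Rab8a*, *Rab35*, the exocyst, *Rab3ip* and Rab11fip genes, members called between genotypes, up to 10 rises and 10 falls called in both genotypes at 48 h with a mean log2 CPM of at least 1, the late endosome and lipid droplet Rabs, and listed trafficking genes called between genotypes or with a log2 change of at least 1 in both genotypes. Other called members, *Rab19* among them, were named after their values were seen. Of the trafficking list *Dennd2b* and *Zfyve20* were not found by symbol and *Sytl5* was not tested. Promoter windows came from RefSeq.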

Additional observations from a re-analysis of the deposited data

How the results depend on the processing

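Of 73 calls of members over all comparisons, DESeq2 and its size factors in edgeR kept 73, no filter 72, and coding transcripts only 62. Transcript lengths as offsets kept 33 and limma on log2(TPM + 1) kept 29. *Rab11fip4*, *Rab15*, *Rab31* and *Rab5b* kept their 48 h calls in both genotypes under all alternatives run. The replicate block kept 72 of 73 calls, *Rab34* between genotypes being lost (adjusted p = 0.052), and the numbers do not pair the libraries. No scaling moved the median of all genes by more than 0.064 in size.

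With length offsets and with limma, the members called were 5 and 4 (WT, 24 h against 0 h), 0 and 0 (WT, 48 h against 24 h), 10 and 10 (WT, 48 h against 0 h), 7 and 7 (KO, 24 h against 0 h), 9 and 8 (KO, 48 h against 0 h), 0 and 0 (KO against WT at 48 h) and 1 and 0 (over all times), and with offsets 3 (KO, 48 h against 24 h). For the other trafficking genes they were 14 and 12 (WT, 48 h), 18 and 19 (KO, 48 h) and 1 and 1 (genotypes). The stricter filter (10 counts or more in each of the 12 libraries) gave 13 for WT at 24 h. Between genotypes, DESeq2, no filter and the 10-count filter each gave 1 at 0 h. At 24 h, DESeq2, its size factors and the 10-count filter gave 1 and no filter gave 2. At 48 h, DESeq2 and no filter gave 2 and coding transcripts only 0. No filter gave 12 trafficking genes over all times.

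Without single libraries the ranges were 6 to 16, 2 to 9 and 12 to 20 in WT (24 h against 0 h, 48 h against 24 h, 48 h against 0 h), 7 to 20, 3 to 14 and 8 to 21 in KO, 0 to 1, 0 to 7, 0 to 2 and 3 to 10 between genotypes (0, 24 and 48 h, all times), 0 to 5 and 0 to 0 for the differences between steps, and 15 to 44, 21 to 46 and 3 to 20 for the trafficking genes. A library left alone in its group was assumed to vary like the others.

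Signs turned for *Rab8a* with offsets and limma (WT at 48 h, 0.086 and 0.13; KO against WT at 24 h, -0.11 and -0.1, at 48 h, -0.13 and -0.17, over all, -0.0095 and -0.0045) and at 24 h without the second WT or KO library of 24 h (-0.05 and -0.033, of a range of -0.05 to 0.087 without single libraries). They turned for *Rab35* in WT at 48 h (0.064 and 0.089) and between genotypes at 24 h with the 10-count filter (-0.0069), coding transcripts only (-0.092), or without the second WT or first KO library of 24 h (-0.037 and -0.00065, of a range of -0.037 to 0.045). For *Rab8a* the share of the retained-intron transcript moved with the length-adjusted value, and the cause was not tested elsewhere. Genes under about 3 counts a library could not be resolved at this depth.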

Other observations

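Within genes of at least 10 TPM, 3 transcripts took a mean share of at least 10% and moved by at least 10 percentage points between 0 h and 48 h in both genotypes. *Rab40c-206*, a coding transcript of the ubiquitin ligase adaptor *Rab40c*, held 29.1 and 30.8% of the gene's TPM in WT ESCs and 0 and 14.4% at 48 h, and 30.8 and 14.5% in KO ESCs and 14.3 and 0.164% at 48 h. *Rab12-202*, a processed transcript without a coding sequence, held 0 and 7.06% in WT ESCs and 45.5 and 47.7% at 48 h, while in KO it went from 39.8 and 16.8% to 47.1 and 31.7%, where the groups overlapped. *Rab3ip-205* held 0 and 2.12% in WT ESCs and 28.1 and 5.36% at 48 h, and 13.6 and 0% in KO ESCs and 11.1 and 24.2% at 48 h, also with overlap. The spread between replicates was as large as 25.6 percentage points (SD, n = 2, *Rab12-202* in KO at 24 h), and these shares were not tested.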
